A study of Mus musculus with 3 samples.

Results

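The replication-type histone genes of the mouse were followed on arrays of RAW264.7 cells, a macrophage line, exposed to 3 fatty acids. They are the genes formerly named with the prefixes Hist1 to Hist4, and a probe set was taken as a member when all genes of its annotation carry such a name. The annotation holds the present symbols, so the old names were matched through the gene identifier and the RefSeq synonyms. This gave 72 probe sets of the 35556 on the array, 23099 of which are annotated to a gene. By histone class, 5 probe sets held linker histone H1 genes, 20 held H2A, 19 held H2B, 13 held H3 and 13 held H4 genes, and 2 mixed classes. RefSeq lists 70 genes with such a name, of which 68 occur among the members, out of 20556 gene symbols in the annotation. The pseudogenes H2ac14 and H2af-ps2 do not. Of the 68 genes, 32 had a probe set of their own. The coding sequences of genes of 1 class are known to be nearly alike. The annotation ties 39 members to several genes each, with up to 11 in 1 probe set, and 33 to a single gene. Only 57 different sets of genes occur among the 72 probe sets, so their values are not independent of each other.

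Replication-dependent histone genes supply the histones that package newly copied DNA. They lack introns, lie in clusters, and are transcribed mainly in S phase, when the factor NPAT, a substrate of cyclin E and CDK2, activates them. Their transcripts end in a stem-loop in place of a poly(A) tail, and the stem-loop binding protein SLBP guides the processing, translation and decay of these mRNAs. H2A, H2B, H3 and H4 form the core of the nucleosome, and H1 binds the linker DNA between nucleosomes.

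One culture received palmitate, a saturated fatty acid, 1 received elaidate, a trans monounsaturated fatty acid, and 1 received oleate, its cis isomer. Each was given at 500 µM for 6 hours, coupled to albumin with 2 fatty acid molecules to each albumin, and each gave 1 array. There was no array of untreated cells and no replicate, so each difference is between a pair of arrays, carries no error and no p-value, and has no replicate check. The 3 comparisons share arrays and are not independent of one another. The deposited values are log2 expression values, called levels here. Their medians over all probe sets were 3.61 for palmitate, 3.58 for elaidate and 3.57 for oleate. The 8 macrophage markers had mean levels from 7.35 to 11.8, while markers of fibroblasts, T cells, B cells, adipocytes and hepatocytes lay between 2.14 and 4.98. With palmitate, 7 of the 8 macrophage markers read lower than with oleate, at a median difference of -0.34, and their part in the results that follow was not tested.

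Most histone probe sets gave nearly the same value on the 3 arrays, as did most annotated probe sets. Between palmitate and oleate, 62 of the 72 (86.1%) differed by at most 0.1, beside 74.3% of the annotated probe sets. Between palmitate and elaidate 53 did (73.6%, beside 75.6%), and between elaidate and oleate 60 did (83.3%, beside 85.8%). The median differences were 0.00 for palmitate minus oleate, 0.01 for palmitate minus elaidate and -0.01 for elaidate minus oleate, beside a median of 0 over the annotated probe sets in each comparison. Values identical on all 3 arrays occurred for 11 members. Equal values between palmitate and oleate made up 34.7% of members, beside 58.4% of annotated probe sets. Of the annotated probe sets, 4499 were higher and 5120 lower with palmitate than with oleate. For palmitate and elaidate the equal shares were 23.6% and 59.7%. The palmitate and oleate share was 82.3% in other annotated probe sets below a level of 4 and 22.0% from 8 to below 10. These shares are thus not matched for level. Single-gene and shared probe sets differed in where they lay on the scale of the array. The shared ones had a median level of 12.77 on the palmitate, 12.76 on the elaidate and 12.77 on the oleate array, and the single-gene ones 7.25, 7.09 and 7.05 in the same order of arrays. A probe set that many transcripts can bind is not comparable in level with one of a single gene, and levels are not compared as amounts of transcript here.

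**Figure D1:**
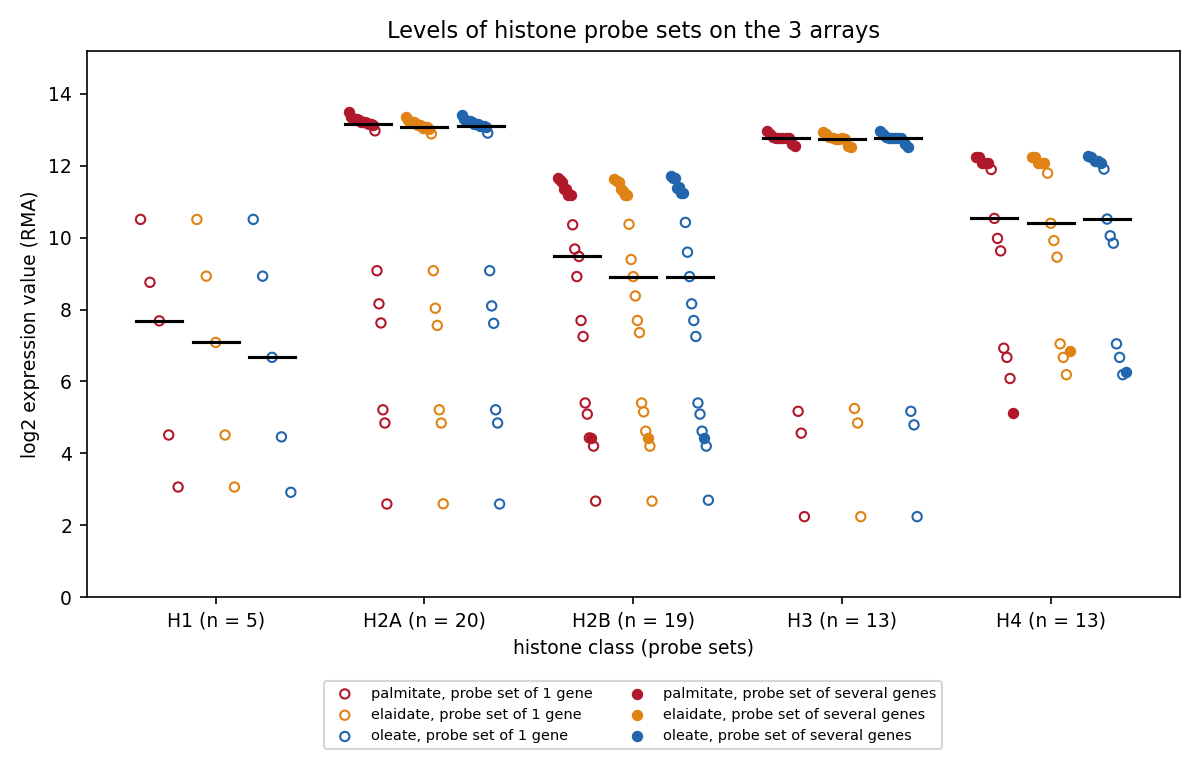
Log2 expression value (RMA) of each histone probe set, on the y axis, by histone class and array on the x axis. Open circles are probe sets of 1 gene, filled circles those of several genes, and black lines the median of a class on an array; the shared H2A probe sets lie near 13 on each of the 3 arrays, while single-gene probe sets spread over the scale. The 2 probe sets of mixed class are not drawn.

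Past 2-fold, 2 members were higher and 1 was lower with palmitate than with oleate. Over the 23099 annotated probe sets, 0.823% were that much higher and 0.571% that much lower. Against elaidate, palmitate had 1 member higher and 1 lower, beside 0.494% and 0.429% of the annotated probe sets. Elaidate against oleate had 0 members past 2-fold in either direction, beside 0.0563% of annotated probe sets higher and 0% lower. At a limit of 1.5-fold, 3 members (4.17%) differed between palmitate and oleate and 3 (4.17%) between palmitate and elaidate, where 4.53% and 3.79% of annotated probe sets did. Between elaidate and oleate 0 members passed that limit, beside 0.42% of annotated probe sets. At 1.5-fold the 2 shares for palmitate lay near those of all annotated probe sets. At 2-fold in either direction the members' share was 4.17% beside 1.39% for palmitate against oleate, and 2.78% beside 0.922% for palmitate against elaidate, which rests on 3 and 2 probe sets. The members concerned were the H2B gene H2bc4, the H1 gene H1f2 and a probe set shared by the H4 genes H4c17 and H4c11. Their probe sets past 2-fold had mean levels of 8.67, 7.15 and 6.07 in that order. Of other annotated probe sets with a mean level from 4 to below 8, 2.86% passed 2-fold for palmitate against oleate and 1.93% against elaidate. From 8 to below 10 the shares were 2.84% and 1.72%, so the shares over all annotated probe sets are not matched for level.

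**Figure D2:**
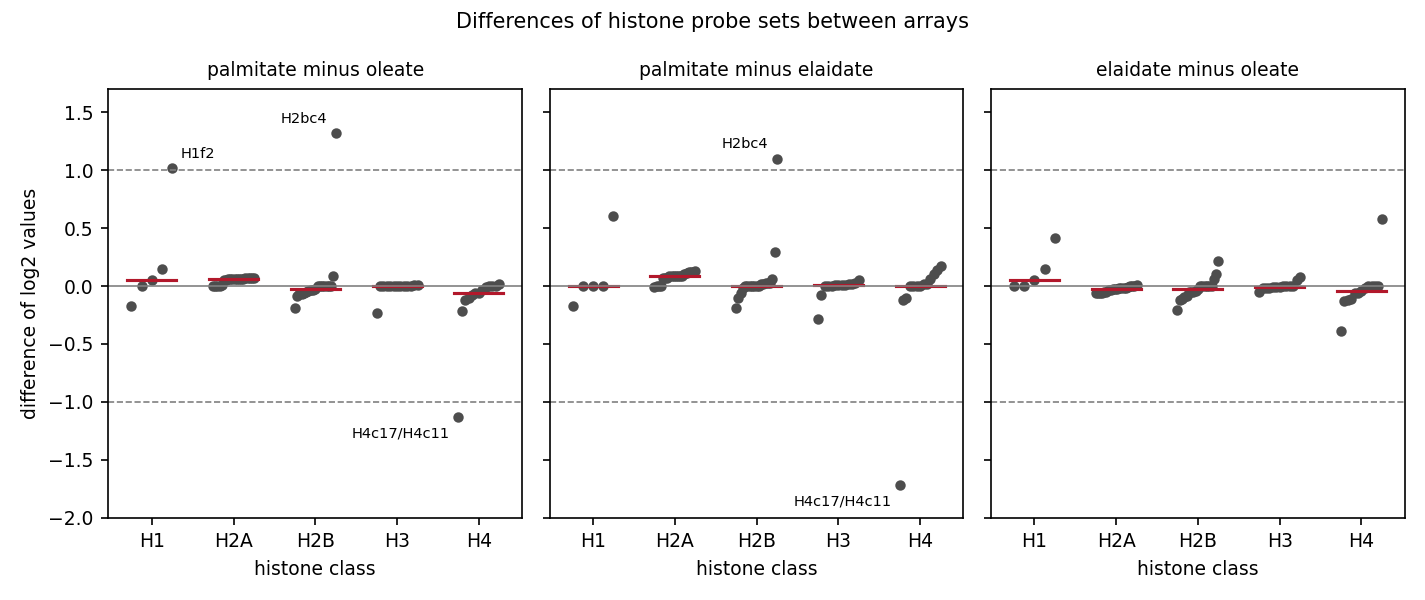
Difference of log2 values between a pair of arrays, on the y axis, for each histone probe set by class, in 3 panels for palmitate minus oleate, palmitate minus elaidate and elaidate minus oleate. Points are probe sets, red lines are class medians, and dashed lines mark 2-fold. In the panels with palmitate, H2bc4, H1f2 and the H4c17/H4c11 probe set stand away from the rest, which lie closer to 0. For elaidate minus oleate the H4c17/H4c11 probe set is at 0.58, H1f2 at 0.41, H4c6 at -0.39 and H2bc4 at 0.22.

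The linker histones include the member with the second largest positive difference. H1f2, formerly Hist1h1c, encodes a somatic H1 subtype. Its level was 7.69 on the palmitate, 7.09 on the elaidate and 6.67 on the oleate array. Palmitate was thus highest and oleate lowest, with a difference of 1.02 for palmitate minus oleate (2.02-fold), 0.60 for palmitate minus elaidate (1.52-fold) and 0.41 for elaidate minus oleate. With each array centred on its median, the difference of palmitate minus oleate was 0.98, below 2-fold. H1f5, another somatic subtype, lay the other way, at 8.76 with palmitate and 8.93 with both elaidate and oleate, a difference of -0.17. H1f1 was at 10.51 on the 3 arrays. H1f3 was at 4.51 with palmitate, 4.51 with elaidate and 4.46 with oleate. The testis subtype H1f6 had 3.06, 3.06 and 2.92 in the same order, below the median level of 3.57 over all probe sets. H1f4 occurred only in a probe set shared with the H2B gene H2bc6, which read 7.10 on each array. The median of the 5 H1 probe sets was 0.05 for palmitate minus oleate, and -0.0036 after quantile normalization. H1f2 was the only one of them past 2-fold.

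The region before the start of H1f2 is printed beside that of H1f1, since these subtypes differed in how they varied over the arrays. Windows of 250 bases before the gene start come from RefSeq on build GRCm38.p6, at chr13:23738557-23738806 on the plus strand for H1f2 and at chr13:23763418-23763667 on the plus strand for H1f1. Capitals mark matches, on either strand, of the TATA box as TATANA, the CCAAT box as CCAAT and the AC box of H1 promoters as AAACACA.
H1f2: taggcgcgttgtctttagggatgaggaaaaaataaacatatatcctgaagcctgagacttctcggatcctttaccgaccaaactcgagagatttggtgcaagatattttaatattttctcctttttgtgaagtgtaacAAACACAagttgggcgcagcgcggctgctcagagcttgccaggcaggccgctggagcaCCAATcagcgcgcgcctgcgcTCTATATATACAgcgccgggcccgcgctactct
H1f1: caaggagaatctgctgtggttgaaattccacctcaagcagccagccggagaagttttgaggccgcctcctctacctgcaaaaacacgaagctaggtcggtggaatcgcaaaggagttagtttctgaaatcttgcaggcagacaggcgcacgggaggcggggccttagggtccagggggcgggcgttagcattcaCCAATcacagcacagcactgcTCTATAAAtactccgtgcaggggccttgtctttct
The H1f2 window held an AC box whose first base lies at -112 from the start, a CCAAT box at -54 and overlapping TATA matches from -33 to -27. The H1f1 window held a CCAAT box at -56 and TATA matches at -35 and -33, and these exact AC box letters were not in it. Of the 6 H1 windows, 5 held AAACACA, as did 2 of 18 H2A and 2 of 17 H2B windows, 0 H3 and H4 windows, and 6.25% of the 32851 windows in the table. H1f1 was thus the only H1 gene without AAACACA in its window. H1f5, H1f3 and H1f6 held it as H1f2 did, with palmitate minus oleate at -0.17, 0.05 and 0.15. A match describes the letters and is not a measured binding site, and a link between letters and levels was not tested.

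Among H2A genes the shared probe sets kept 1 order of arrays. The 13 probe sets that hold several H2A genes were all highest on the palmitate and lowest on the elaidate array, with levels of 13.08 to 13.42 averaged over the arrays. Palmitate exceeded oleate by 0.05 to 0.07, and exceeded elaidate by 0.07 to 0.13. The probe set of H2ac18, H2ac19 and H2ac20, genes of the cluster on chromosome 3, read 13.49 on the palmitate, 13.37 on the elaidate and 13.42 on the oleate array. A probe set of 5 genes of the chromosome 13 cluster, among them H2ac7 and H2ac12, read 13.35, 13.28 and 13.29 in the same order. A second probe set of the chromosome 3 genes and one of 9 chromosome 13 genes also exceeded oleate by 0.07 with palmitate. These probe sets measure overlapping groups of genes, and their common order counts as a few observations at most. With arrays centred, put through cyclic loess or quantile normalized, all 13 stayed higher with palmitate than with oleate, at medians of 0.02, 0.07 and 0.04. For elaidate minus oleate all 13 stayed lower after centring and loess, and 12 of 13 after quantile normalization.

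The single-gene H2A probe sets added 3 with the same order. H2ac21 was at 12.97 with palmitate, 12.89 with elaidate and 12.91 with oleate. H2ac15 was at 8.16, 8.04 and 8.10, and H2aw, the H2A gene of the small chromosome 11 group, at 7.63, 7.56 and 7.62 in that order. H2ac4 read 9.08, H2ac8 read 4.84 and the testis gene H2ac1 read 5.21 on each array. H2ac6 lay at 2.59 with palmitate, 2.60 with elaidate and 2.59 with oleate, below the median of all probe sets. Over the class, 16 of 20 probe sets were higher with palmitate than with oleate, 0 were lower and 4 had equal values. After centring 15 were higher and 5 lower, after cyclic loess 19 and 1, and after quantile normalization 16 and 4. The class median was 0.06 and the highest difference 0.07. No H2A probe set came near 2-fold.

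H2B genes include the member with the highest difference. H2bc4, formerly Hist1h2bc, encodes a core histone H2B, and its human counterpart is among the histone genes known to give polyadenylated transcripts as well. Its own probe set read 9.48 on the palmitate, 8.38 on the elaidate and 8.16 on the oleate array. Palmitate stood apart from the other arrays, by 1.32 over oleate (2.49-fold) and by 1.10 over elaidate (2.14-fold), while elaidate exceeded oleate by 0.22. These differences stayed past 2-fold under each other scaling, at 1.28 to 1.33 against oleate and 1.07 to 1.12 against elaidate. A second probe set annotated to H2bc4 alone read 2.67 with palmitate, 2.67 with elaidate and 2.70 with oleate, below the median of all probe sets. The 2 probe sets therefore disagree on this gene. A further 5 shared H2B probe sets list H2bc4 among 10 or 11 genes, and palmitate minus oleate lay between -0.07 and -0.03 in them. Whether the transcripts measured carried a poly(A) tail was not tested.

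Of the H2B probe sets, 11 of 19 were lower with palmitate than with oleate, 6 were equal, and only H2bc3 was higher besides H2bc4. After centring 17 were lower and 2 higher, after cyclic loess 10 and 9, and after quantile normalization 14 and 5. H2bc3 was at 9.68 with palmitate, 9.39 with elaidate and 9.60 with oleate, so it was lowest with elaidate, at -0.20 against oleate. H2bu1-ps, a pseudogene formerly Hist3h2bb, was at 4.43 with palmitate and 4.62 with both elaidate and oleate in its own probe set, a difference of -0.19 against each. The probe set it shares with H2bu2 read 4.43 on each array. The shared probe set of 11 H2B genes with the highest mean level in the class read 11.66, 11.63 and 11.73 for palmitate, elaidate and oleate. A probe set of 10 such genes read 11.61, 11.58 and 11.67, and one of 9 genes read 11.56, 11.54 and 11.65. Of the 8 shared H2B probe sets, 7 were lower with palmitate than with oleate, by at most 0.09, and 1 was equal. Oleate was highest alone in 9 of the 19 H2B probe sets, where in H2A it was highest alone in 0 of 20. Most of these 9 are shared probe sets of overlapping gene groups, so they are not 9 separate observations. The share over all annotated probe sets was not counted, and no trait of the class is drawn from this count. H2bc14, measured alone, was 1 of the 9, at 10.36 for palmitate, 10.37 for elaidate and 10.42 for oleate. H2bc18 at 8.92, H2bc22 at 5.40 and the testis gene H2bc1 at 4.20 were equal on the 3 arrays. The gene with the present symbol H4bc24 is the H2B gene formerly named Hist1h2br and was counted with H2B. The class median of palmitate minus oleate was -0.03.

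The shared H3 probe sets were close to equal between palmitate and oleate. These 10 lay between 12.54 and 12.96 in mean level, and palmitate minus oleate ran from 0.00 to 0.01 in them. The probe set of H3c2, H3c13, H3c14 and H3c15 read 12.98 on the palmitate, 12.95 on the elaidate and 12.96 on the oleate array. One of 7 H3 genes read 12.90, 12.88 and 12.90 in that order. Elaidate was lowest alone in 9 of the 13 H3 probe sets, with sizes of at most 0.05. All 9 are shared probe sets of overlapping gene groups, so they are not 9 separate observations. The share over all annotated probe sets was not counted. H3c15 and H3c4, measured alone, were instead highest with elaidate. H3c15 alone was at 4.56 with palmitate, 4.84 with elaidate and 4.79 with oleate, a difference of -0.23 against oleate and the only one of this class beyond 0.1 there. H3c4 was at 5.17, 5.25 and 5.17, and H3c7 read 2.24 on each array, below the median of all probe sets.

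The H4 genes hold the largest difference in size among the members. H4c17 and H4c11, formerly Hist1h4m and Hist1h4j, share a probe set that read 5.13 on the palmitate, 6.84 on the elaidate and 6.26 on the oleate array. Palmitate was lowest and elaidate highest, with -1.71 for palmitate minus elaidate (3.28 times lower) and -1.13 for palmitate minus oleate (2.19 times lower). Elaidate exceeded oleate by 0.58, just under 1.5-fold. Both genes also belong to a probe set of 7 H4 genes, which read 12.25 with palmitate, 12.24 with elaidate and 12.25 with oleate. That probe set did not differ between arrays as the one of the pair did. H4c6 was next, at 9.63, 9.46 and 9.85 for palmitate, elaidate and oleate, a difference of -0.21 for palmitate minus oleate and -0.39 for elaidate minus oleate. H4c3 was at 6.92 with palmitate and 7.05 with both others.

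H4 probe sets otherwise stayed close. The probe set with the highest mean level, of 5 genes that include H4c1 and H4c2, read 12.25, 12.24 and 12.28 for palmitate, elaidate and oleate. H4c4 was at 11.90, 11.80 and 11.91, H4c14 at 10.54, 10.40 and 10.52, and H4f16, the gene on chromosome 6, at 9.98, 9.92 and 10.05 in that order. Each of these 3 single genes was lowest with elaidate. H4c9 read 6.67 on each array. H4c8 was at 6.08 with palmitate and 6.19 with both others. The class median was -0.06 for palmitate minus oleate, with 9 of 13 probe sets lower, 1 higher and 3 equal. After centring 13 were lower and 0 higher, after cyclic loess 9 and 4, and after quantile normalization 10 and 2. The shared probe sets among them hold overlapping gene groups and are not separate observations.

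Windows before the start of the H4 pair and of H2bc14 are shown to set the letters of the classes side by side. They lie at chr13:21734784-21735033 for H4c11, chr13:21811496-21811745 for H4c17 and chr13:21721794-21722043 for H2bc14, all on the plus strand of GRCm38.p6 in RefSeq. Capitals mark the same motifs as above, with the core of the H4 subtype element, GGTCCG, and the octamer ATTTGCAT, which OCT1 is known to bind in H2B promoters.
H4c11: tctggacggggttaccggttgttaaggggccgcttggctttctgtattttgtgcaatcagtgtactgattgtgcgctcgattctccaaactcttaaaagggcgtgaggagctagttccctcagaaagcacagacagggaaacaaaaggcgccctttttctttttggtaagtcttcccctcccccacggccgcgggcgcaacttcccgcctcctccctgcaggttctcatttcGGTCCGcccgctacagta
H4c17: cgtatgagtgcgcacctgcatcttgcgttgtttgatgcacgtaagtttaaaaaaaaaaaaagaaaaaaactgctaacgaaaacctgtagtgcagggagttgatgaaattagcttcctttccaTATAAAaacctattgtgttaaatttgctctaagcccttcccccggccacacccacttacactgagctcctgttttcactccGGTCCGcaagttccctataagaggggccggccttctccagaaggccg
H2bc14: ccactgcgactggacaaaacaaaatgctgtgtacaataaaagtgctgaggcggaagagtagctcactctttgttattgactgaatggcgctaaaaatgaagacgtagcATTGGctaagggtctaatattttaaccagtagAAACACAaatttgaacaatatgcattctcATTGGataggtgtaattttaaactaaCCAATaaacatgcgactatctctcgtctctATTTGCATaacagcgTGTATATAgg
GGTCCG began at -18 in the H4c11 window and at -47 in the H4c17 window, and the H4c17 window also held TATANA at -128. In the H2bc14 window the octamer began at -25, CCAAT matches lay at -142, -81 and -55, AAACACA at -110, and TATANA at -10 and -8. A window was found for 62 of the 68 genes, 63 windows in all. In these, GGTCCG occurred in 9 of 12 H4 windows, 1 of 17 H2B and 1 of 10 H3 windows, beside 6.72% of all windows. The octamer occurred in 7 of 17 H2B and 7 of 18 H2A windows, beside 1.60% of all windows, and in 0 of the H1, H3 and H4 windows. CCAAT occurred in every H2A and H2B window, in 3 of 12 H4 windows and in 33.9% of all windows, and TATANA in 44 of the 63 windows beside 22.6% of all. Of the 63 windows, 20 overlap the window of another member, and in 2 windows matches of different motifs overlap. H2bc4, H2bc21, H2bu1-ps, H3c1, H3c7 and H4c14 had no window.

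The size of the differences varied along the array's scale and was small at both ends. Histone probe sets made up 30 of the 241 annotated probe sets with a mean level of 12 or more (12.4%) and 13 of the 46 with 13 or more (28.3%). The highest value on an array was 13.60 for palmitate, 13.62 for elaidate and 13.67 for oleate. For palmitate minus oleate the standard deviation of the differences over the 30 histone probe sets at 12 or more was 0.04, and over the other 211 annotated probe sets there it was 0.09. Of those 211, 1 was past 1.5-fold. The share of other annotated probe sets past 1.5-fold was 0.278% below a level of 4, 8.59% from 4 to below 8, 10.1% from 8 to below 10 and 5.13% from 10 to below 12. Within the top range, 27 of the 30 histone probe sets were lower with elaidate than with oleate, 0 were higher and 3 were equal. The differences of these 30 ran from -0.06 to 0.00, with a median of -0.02. All of the 30 but that of H2ac21 are shared probe sets of overlapping gene groups, so they are not 30 separate observations. The other 211 annotated probe sets split into 23 lower, 39 higher and 149 equal. The part that the position on the scale plays in the small differences was not tested.

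**Figure D3:**
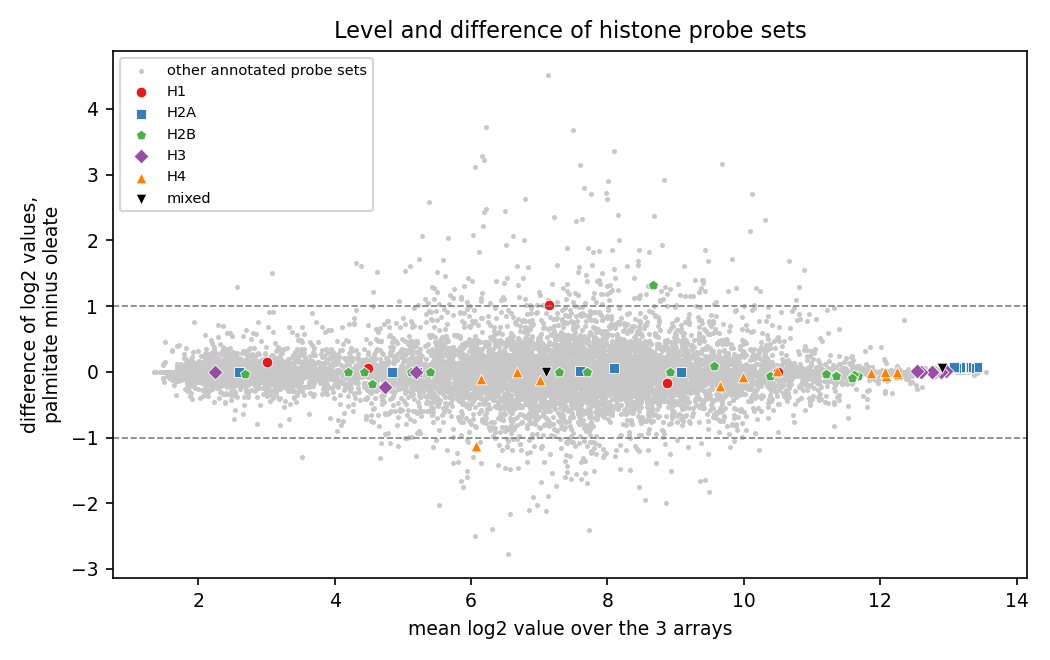
Difference of log2 values between palmitate and oleate, on the y axis, against the mean log2 level over the 3 arrays, on the x axis, for histone probe sets by class over the other annotated probe sets in grey, with dashed lines at 2-fold. The spread of the grey points narrows toward both ends of the scale, and 30 histone probe sets have a mean level of 12 or more.

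Genes that act on histone mRNA were compared next, as means over their probe sets. Of 18820 genes, 2.38% were at least 1.5-fold higher and 2.41% at least 1.5-fold lower with palmitate than with oleate. The shares were 1.64% and 2.27% for palmitate against elaidate, and 0.383% and 0.0425% for elaidate against oleate. All 16 factors of histone mRNA synthesis, processing and decay were measured. Their median was 0.00 in each comparison, and 1 was at least 1.5-fold lower with palmitate than with oleate. That gene was Ncbp2, the smaller subunit of the nuclear cap-binding complex, at 7.47 with palmitate, 7.94 with elaidate and 8.13 with oleate. Slbp was at 6.90, 7.35 and 7.27 in that order, -0.36 for palmitate minus oleate. Npat was at 7.25 with palmitate, 7.31 with elaidate and 7.25 with oleate. The highest difference of palmitate minus oleate in the list was 0.06, for the cleavage factor subunit gene Cpsf2.

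Replacement histones, which are deposited outside S phase as well, had 10 of 11 genes measured. The median of palmitate minus oleate was -0.03, with 0 past 1.5-fold. H2afv, the second H2A.Z gene, was at 6.66 with palmitate and 7.18 with both elaidate and oleate, and H2afx, whose product marks DNA breaks, at 7.45, 7.73 and 7.87 for palmitate, elaidate and oleate. H3f3b, a gene of H3.3, was at 11.63, 11.45 and 11.43 in that order. H2afz, the first H2A.Z gene, was at 11.51, 11.64 and 11.50 for palmitate, elaidate and oleate, and its difference of 0.00 for palmitate minus oleate was the second highest of the list.

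Of 15 histone chaperones and deposition factors, 12 were measured, with a median of -0.10 for palmitate minus oleate. At least 1.5-fold lower with palmitate were 2, against oleate and against elaidate alike. Chaf1a, the large subunit of the assembly factor CAF-1, was at 6.36 with palmitate, 7.09 with elaidate and 7.10 with oleate. Asf1b, a chaperone of H3 and H4 in dividing cells, was at 8.69, 9.33 and 9.37 in that order. Its paralogue Asf1a lay the other way, at 6.62, 6.51 and 6.31. Hat1, which acetylates new H4, differed by 0.05 between palmitate and oleate.

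Genes of S-phase entry and replication, whose lower level on the palmitate array was known when the list was drawn up, serve as the setting for the histone values. Of 20 genes 17 were measured, with a median of -0.61 for palmitate minus oleate, -0.46 for palmitate minus elaidate and -0.13 for elaidate minus oleate. At least 1.5-fold lower with palmitate were 10 against oleate and 5 against elaidate, and 0 genes were that much higher in any comparison. Ccne1, the cyclin that with CDK2 phosphorylates NPAT, was at 6.55 with palmitate, 7.96 with elaidate and 8.11 with oleate. Rrm2, a subunit of ribonucleotide reductase, was at 8.41, 9.60 and 9.55 in that order. Pcna, the sliding clamp of the replication fork, was at 11.23, 11.49 and 11.36, and the licensing factor gene Cdt1 at 8.91, 8.77 and 8.91. Beside these, the 72 histone probe sets had a median of 0.00 for palmitate minus oleate. The lists are not matched for level: the S-phase genes had mean levels from 5.80 to 11.36, and the histone probe sets a median level of 11.28. Differences were small at the top of the scale, and 39 of the 72 histone probe sets are shared by several genes. Whether histone RNA followed the S-phase genes was not tested. In RNA from a whole culture, fewer cells in S phase and less RNA per cell cannot be told apart.

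**Figure D4:**
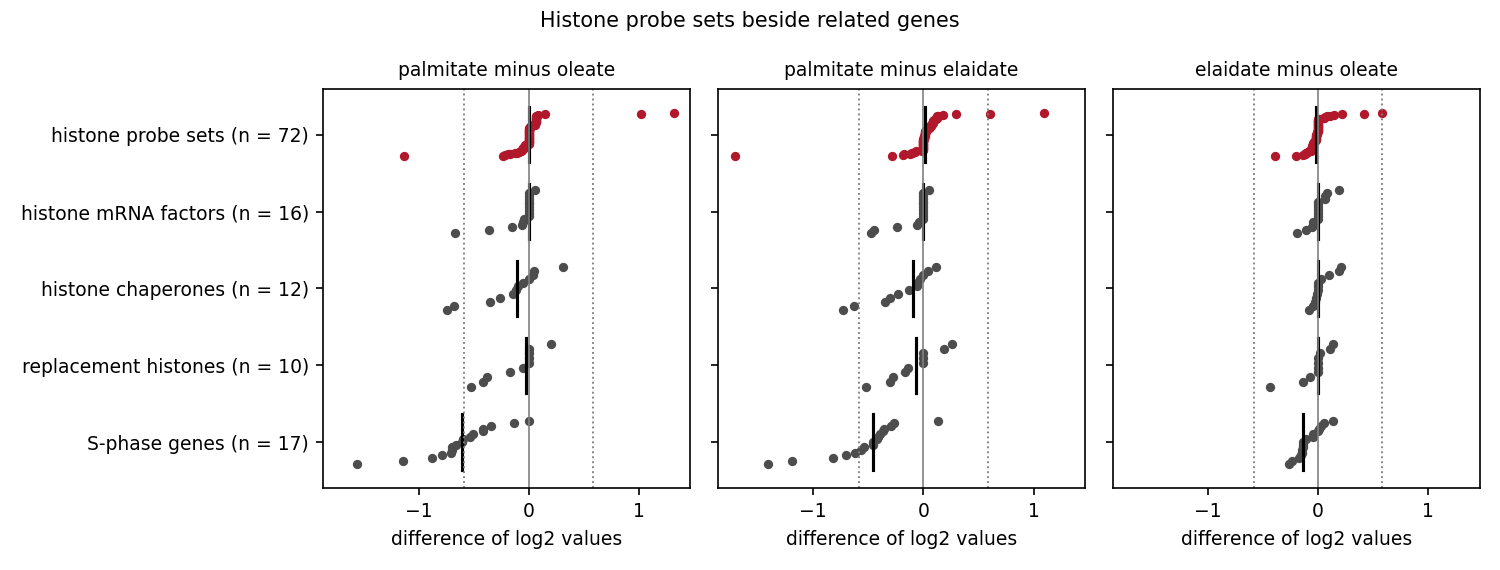
Difference of log2 values between a pair of arrays, on the x axis, for the histone probe sets (red) and the genes of 4 lists (grey), in rows. Points are probe sets or genes, black lines are medians and dotted lines mark 1.5-fold. The S-phase genes have a median of -0.61 for palmitate minus oleate, and the histone probe sets one of 0.00. The rows are not matched for level, and 39 of the 72 histone probe sets are shared by several genes.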

How the data were processed

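Total RNA of RAW264.7 cells was labelled with a whole-transcript assay and hybridised to Affymetrix arrays, 1 per fatty acid, per the labels' protocols. The authors deposited a log2 value for each probe set, made with RMA (version not given in the sources used here) per the submitters' processing notes. This method corrects background, makes the distributions of the arrays alike and summarises probes by median polish, which can give identical values on several arrays. The values were used as deposited.

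Members were matched by gene identifier to RefSeq synonyms, and 1 probe set that pairs a histone gene with another gene was left out. Of the probe sets, 21218 carry 1 symbol, 1881 several and 12457 are unnamed here. For genes, probe sets with 1 symbol were averaged. Values within 1e-06 were called equal. Differences of log2 values were counted at 2-fold and 1.5-fold, with no test. Arrays have no depth, and their number limits the precision. The files name no genome build, so coordinates are given only for RefSeq promoter windows, searched over 250 bases.

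The members and lists were chosen with earlier results of these data known. Named in each class were the 3 lowest and 3 highest differences of palmitate minus oleate, the lowest and highest of elaidate minus oleate, the 2 highest mean levels and every member past 2-fold; in each list, the 2 lowest, the 2 highest and any gene past 2-fold, with Slbp and Npat. Ties are given in part, and further members were named after their values were seen. Alternatives were other scalings (centring, cyclic loess with span 0.7 and 3 iterations, quantile normalization), a filter at the median level, the lower fold, the mean in place of the median, and other choices of members or unit of counting. The counting steps were tested on simulated data. Tools were R 4.3.3 with limma 3.58.1 and Python 3.11.15 with matplotlib 3.10.9, scipy 1.17.1, pandas 2.3.3 and numpy 2.4.6.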

Additional observations from a re-analysis of the deposited data

How the results depend on the processing

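Of the recomputed counts and class medians, 156 stayed within the tolerance and 24 moved. Some of the 156 could not move. Single-gene probe sets and a mean per set of genes leave H1 unchanged, and leaving out testis genes leaves H3 and H4 unchanged. The filter at the median level removes no H4 member, and leaving out equal values cannot change a count past 2-fold. The count past 2-fold for elaidate minus oleate was 0, so choosing among members or averaging them could not raise it. A median over fewer H1 members always lies within the whole H1 range, which was its tolerance. The tolerance was 1.5 times for a count and the 95% order-statistic interval over its probe sets for a median (for H1 the whole range). It is wide for a class of few members: for H4 in elaidate minus oleate it took in -0.1119 with single-gene probe sets against -0.0449. Values are differences of log2 values. For palmitate minus oleate, centring each array on its median gave -0.04 for all histone probe sets, 0.0225 for H2A, -0.0660 for H2B and -0.04 for H3, and 0.98 for H1f2. Cyclic loess gave 0.0020 for all and 0.0026 for H3, quantile normalization 0.0334 for H2A, the mean 0.0112 for all, and leaving out equal values 0.0105 for all and 0.0088 for H3. Single-gene probe sets gave 0.00 for H2A. For palmitate minus elaidate, centring gave -0.0152 for all, 0.0570 for H2A, -0.0276 for H2B and -0.0188 for H3. Quantile normalization gave 0.0568 for H2A, and single-gene probe sets 0.00 for H2A and -0.0774 for H3. The count past 2-fold was 1 with single-gene probe sets and 1 with a mean per set of genes, against 2. For palmitate minus oleate it was 2 with each of these and 2 with centring, against 3. For elaidate minus oleate, centring gave -0.0262 for all and -0.0203 for H3, and single-gene probe sets 0.00 for H2A and 0.0523 for H3. The largest size of a median of all members or of a class under these alternatives was 0.10 for palmitate minus oleate, 0.09 for palmitate minus elaidate and 0.11 for elaidate minus oleate. Centring moved the median over all probe sets by -0.04, -0.03 and -0.01, larger than some class medians, so signs of medians near 0 depend on the scaling. The scalings of single members and a median over shared probe sets alone were added after seeing the data. No paired analysis was possible because each fatty acid has 1 array. With 1 array each, array-to-array error was not measured, and signal over background was not analysed here.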
